A study of Mus musculus with 3 samples.

Results

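The genes described here set the pace of entry into the cell cycle: the D cyclins Ccnd1, Ccnd2 and Ccnd3, their kinases Cdk4 and Cdk6, the CDK inhibitors Cdkn1a, Cdkn1b and Cdkn2c, the retinoblastoma gene Rb1 and the homeobox gene Meis1. They were chosen by name, and the locus of each was found by its symbol in the deposited transcript annotation. All 10 were found, among 48626 loci of the expression table and 20117 loci with a protein-coding transcript (mRNA loci). The values come from total RNA of the heart ventricle of C57BL/6 mice (the study's methods name purchased C57BL/6 J mice), sampled at days E10.5 and E13.5 of embryonic development and at 8 weeks of age (the adult library). No mutation, treatment or sex was given for any stage, and whether several animals were pooled was not stated. Each stage is 1 stranded, paired-end library, so none of the differences below could be checked against replicates and p-values are not given.

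D cyclins are the cyclins that answer to growth signals outside the cell. They bind and activate CDK4 or CDK6, and the complexes phosphorylate the retinoblastoma protein and its relatives, which frees E2F transcription factors to switch on the genes of DNA replication. Inhibitors of the INK4 family, such as the Cdkn2c product p18, bind CDK4 and CDK6 directly, whereas the Cip/Kip proteins p21 (Cdkn1a) and p27 (Cdkn1b) bind whole cyclin-CDK complexes. In the mouse, heart muscle cells divide in the embryo and largely leave the cell cycle soon after birth, and MEIS1 is known as a transcription factor needed for that arrest.

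The level of a gene is given in FPKM, fragments per kilobase of exon, scaled to the mapped fragments of the library, which allows levels of different genes to be compared per length. A change between stages is the difference of log2(FPKM + 1), and a change of 1 or more, a fold of about 2, counted as past the limit. From E10.5 to the adult, 5 of the 10 genes were lower by more than the limit (Ccnd1, Ccnd2, Ccnd3, Cdk4 and Meis1), where 27.3% of the 12569 mRNA loci at 1 FPKM or more in a library were lower. None of the 10 was higher by the limit over that interval, against 14.8% of mRNA loci. From E13.5 to the adult, Ccnd1, Ccnd3, Cdk4 and Meis1 were lower (4 of 10, with 32.1% of mRNA loci lower) and Rb1 was higher (1 of 10, with 13.0% higher). Between the embryonic stages only Ccnd2 was lower (1 of 10, with 4.85% of mRNA loci lower) and only Cdkn2c higher (1 of 10, with 5.89% higher). Over the E10.5 to adult interval the 10 genes had a median change of −0.91, and all mRNA loci one of −0.40.

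The 3 intervals share libraries, so their counts are not independent, and the scaling between libraries bears on them. Median-of-ratios scaling, which sets the typical mRNA locus equal in all libraries, brought the median change of mRNA loci from E10.5 to the adult to −0.02. With it, the mRNA loci past the limit from E10.5 to the adult went from 1856 higher and 3430 lower to 2602 higher and 2232 lower. Over the E13.5 to adult interval they went from 1637 higher and 4029 lower to 2679 higher and 2340 lower, and from E10.5 to E13.5 from 740 higher and 609 lower to 546 higher and 750 lower. Scaling to the sum of mRNA loci without globin gave 422 higher and 1086 lower between the embryonic stages. Among the 10 genes, Ccnd2, Ccnd3 and Cdk4 stayed below the limit from E10.5 to adult under median-of-ratios scaling. Ccnd1 (−0.99) and Meis1 (−0.93) then fell just short of it, and Cdkn1a (1.21) and Rb1 (1.02) were higher by more than it. Meis1 also fell short from E13.5 to adult (−0.95), and Cdkn1a was then higher by 1.35. In bulk tissue, fewer cells of a type and less RNA per cell cannot be told apart.

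**Figure D1:**
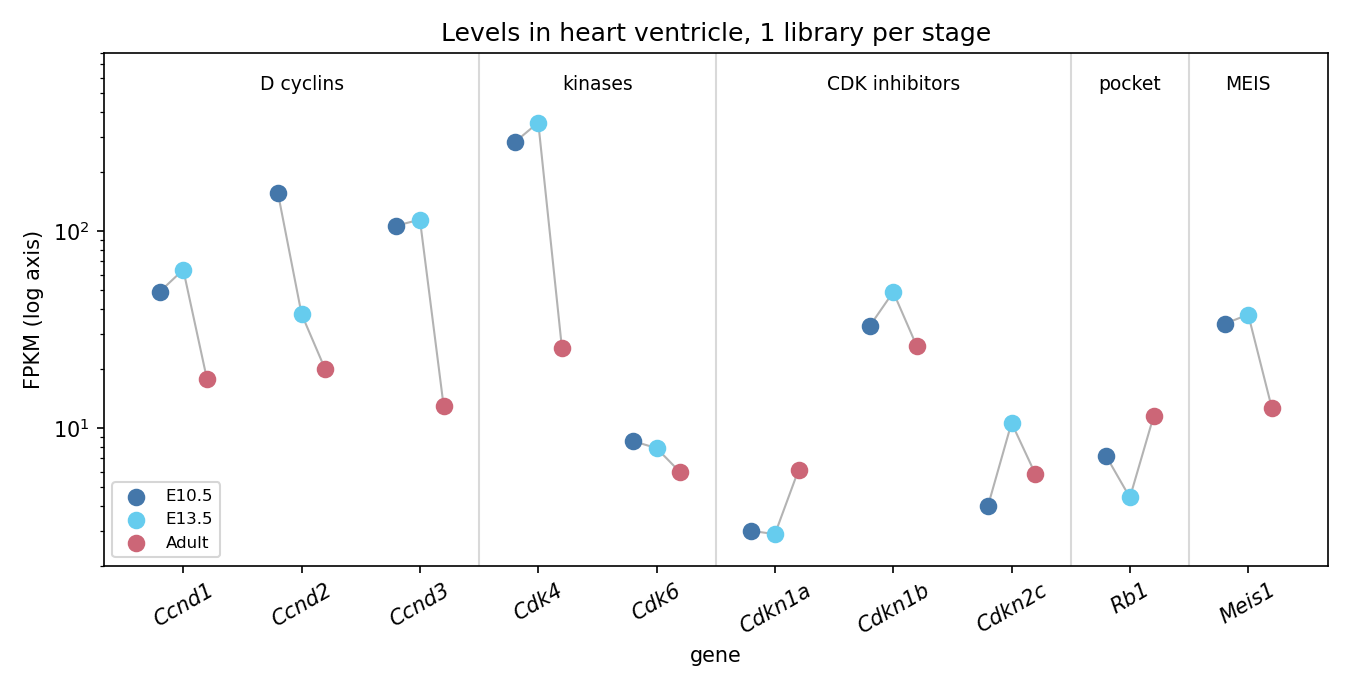
Level of each gene in FPKM (log axis) in the E10.5, E13.5 and adult libraries, 1 point per library, with genes grouped by role. Cdk4 spans the widest range, from 355 FPKM at E13.5 to 25.5 FPKM in the adult, and the adult point is above both embryonic points only for Cdkn1a and Rb1.

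The 3 D cyclins were all lowest in the adult, but each took a different course. Ccnd2, the most abundant of them at E10.5, was at 155 FPKM at E10.5, 37.8 FPKM at E13.5 and 19.8 FPKM in the adult. It dropped early, by 4.12-fold between the embryonic stages, a change of −2.01, and was 7.85-fold lower at 8 weeks than at E10.5. Its rank among mRNA loci went from the 97.9th percentile at E10.5 to the 83.8th at E13.5 and the 79.1st in the adult, a measure that no scaling of a library alters. Ccnd3 was at 106 FPKM at E10.5, 114 FPKM at E13.5 and 13.0 FPKM in the adult. It was level between the embryonic stages (change 0.10, and −0.03 with median-of-ratios scaling) and 8.80-fold lower in the adult than at E13.5. Ccnd1 was at 49.0 FPKM at E10.5, 63.5 FPKM at E13.5 and 17.7 FPKM in the adult, the smallest difference of the 3 between E10.5 and the adult, 2.77-fold. Its change from E13.5 to the adult, −1.79, was past the limit under median-of-ratios scaling too, at −1.22.

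Shares within a library do not depend on the scaling between libraries. The summed level of the 3 D cyclins was 311 FPKM at E10.5, 215 FPKM at E13.5 and 50.5 FPKM in the adult. Ccnd2 held 50.03% of that sum in the E10.5 library, 17.5% at E13.5 and 39.2% at 8 weeks. Ccnd3 held 34.2% at E10.5, 52.97% at E13.5 and 25.7% at 8 weeks. Ccnd1 held 15.8% at E10.5, 29.5% at E13.5 and 35.1% at 8 weeks. A different D cyclin therefore led at E10.5 (Ccnd2) and at E13.5 (Ccnd3), and Ccnd2 led again in the adult. Weighted by the length of the longest matched transcript, a measure nearer to fragments than to molecules, Ccnd3 held 32.7% at E13.5 and Ccnd2 34.7%. The lead of Ccnd3 at that stage therefore rests on the per-length scale. In the adult, the same weighting gave Ccnd2 58.7% and Ccnd1 29.3%.

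The structures of the 3 loci differ. On mm10, Ccnd1 lies on the minus strand at chr7:144929931-144939925, and its locus also holds the 20-base transcript of Mir3962, which shares its deposited value. Ccnd2 lies on the minus strand at chr6:127125090-127151444. Ccnd3 lies on the plus strand at chr17:47504890-47599688, where 9 transcripts with 6 start sites were assembled. The mouse genome also holds a Ccnd3 pseudogene on another chromosome, and how fragments that match both were assigned is not stated.

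The kinases that D cyclins activate went apart. Cdk4 was at 282 FPKM at E10.5, 355 FPKM at E13.5 and 25.5 FPKM in the adult, the highest of the 10 genes at each stage except the adult, where Cdkn1b was at 25.9 FPKM. The adult level was 11.1-fold below E10.5 and 13.9-fold below E13.5, a change of −3.42 and −3.75, and the E10.5 to adult change was −2.98 with median-of-ratios scaling. Cdk4 ranked at the 99.1st percentile of mRNA loci at E10.5, the 98.998th at E13.5 and the 83.8th in the adult. Cdk6, the other kinase of D cyclins, was at 8.57 FPKM at E10.5, 7.89 FPKM at E13.5 and 5.95 FPKM in the adult. Its changes stayed within the limit at −0.11, −0.36 and −0.46 from E10.5 to E13.5, from E13.5 to the adult and from E10.5 to the adult, the second of them turned to 0.16 with median-of-ratios scaling, and its rank stayed between the 42.6th and the 45.6th percentile. The Cdk4 level stood at 32.9-fold that of Cdk6 at E10.5, 44.99-fold at E13.5 and 4.28-fold at 8 weeks. Weighted by matched transcript length it was 3.92-fold, 5.37-fold and 0.511-fold, so the lead of Cdk4 in the adult rests on the per-length scale. The sum of both kinases over the sum of D cyclins stood at 0.934 at E10.5, 1.68 at E13.5 and 0.622 at 8 weeks. With the same weighting that ratio was 0.324, 0.767 and 0.442, lowest at E10.5 instead of in the adult.

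Cdk4 lies on the plus strand at chr10:127063534-127071747, and its locus was joined with LOC100504703 by a transcript of 5588 bases. Tspan31, a tetraspanin gene on the opposite strand, overlaps that locus and was at 42.4 FPKM at E10.5, 68.4 FPKM at E13.5 and 33.2 FPKM in the adult. Cdk6 lies on the plus strand at chr5:3344283-3531000. An unnamed transcript of 281 bases on the same strand, chr5:3343891-3344171, ends 112 bp before the assembled Cdk6 locus. It was at 3.91 FPKM at E10.5, 4.71 FPKM at E13.5 and 1.006 FPKM in the adult. The RefSeq start of Cdk6, chr5:3343893, lies inside this transcript and 390 bp from the nearest assembled Cdk6 start. The transcript may thus be a detached part of Cdk6 rather than a neighbour, which was not tested.

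The promoter of Cdk4 is shown because Cdk4 is the gene of the 10 with the largest change. Among RefSeq promoter windows on GRCm38.p6 (250 bases before to 50 after a start), 7 of the 10 genes had an entry, and Ccnd1, Ccnd2 and Rb1 had none. The 250 bases before the Cdk4 start, chr10:127063285-127063534 on the plus strand, are printed with the motif CACGTG in capitals, the E-box that MYC and related factors are known to bind.
Cdk4 promoter: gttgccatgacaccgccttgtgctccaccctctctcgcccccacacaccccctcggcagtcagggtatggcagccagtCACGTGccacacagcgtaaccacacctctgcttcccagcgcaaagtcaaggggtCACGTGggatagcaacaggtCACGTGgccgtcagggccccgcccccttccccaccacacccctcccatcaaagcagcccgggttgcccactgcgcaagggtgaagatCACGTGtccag
The motif occurs 4 times, beginning 172, 118, 98 and 11 bases before the start. Of the other windows of the 7 genes, that of Cdk6 and 1 of the 2 of Cdkn2c hold it once. Those of Ccnd3, Cdkn1a, Cdkn1b and Meis1 do not hold it, so the motif did not go with the direction of change. CACGTG reads the same on both strands and occurs at least once in 7.15% of 32851 windows, and 4 or more times in 8 of them (0.0244%). The count of 4 is that of Cdk4 itself, so the second share is no independent measure of rarity. Among upstream factors, the MYC family gene Mycn was at 17.3 FPKM at E10.5, 21.7 FPKM at E13.5 and 0.617 FPKM in the adult, whereas Myc was at 4.36, 3.001 and 1.76 FPKM in that order. A sequence match is a description, and binding was not measured. Letters typical of E2F sites (TTTCCCGC, TTTGGCGC, TTTCGCGC or TTTGCCGC on either strand) were in none of the 10 windows of the 7 genes and in 2.26% of all windows.

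The 3 inhibitors among the 10 genes showed no common direction. Cdkn1b, which encodes p27, was the most abundant inhibitor of the 3 in every library, at 32.8 FPKM at E10.5, 48.9 FPKM at E13.5 and 25.9 FPKM in the adult. Its changes were within the limit (0.56, −0.89 and −0.33 in the same order of intervals as above), and the last of them turned to 0.11 with median-of-ratios scaling. Cdkn1a, which encodes the p53 target p21, was at 3.001 FPKM at E10.5, 2.89 FPKM at E13.5 and 6.12 FPKM in the adult. The adult level was 2.04-fold that at E10.5 in FPKM, a change of 0.83 on the log2(FPKM + 1) scale, and the rank rose from the 22.3rd to the 46.0th percentile. With a pseudocount of 0.1 or with median-of-ratios scaling it passed the limit. Cdkn2c, which encodes p18, was at 4.005 FPKM at E10.5, 10.6 FPKM at E13.5 and 5.85 FPKM in the adult. It was 2.65-fold higher at E13.5 than at E10.5 (change 1.21), and the limit was not reached with scaling to the mRNA sum. At E10.5 the Cdkn2c value rested on about 61 fragments and that of Cdkn1a on about 80, the least support among the 10 genes, as estimated from the smallest steps of the FPKM values.

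Set against the D cyclins, the 3 inhibitors together were at 39.8 FPKM at E10.5, 62.4 FPKM at E13.5 and 37.9 FPKM in the adult. Their sum over the D cyclin sum stood at 0.128 at E10.5, 0.290 at E13.5 and 0.7502 at 8 weeks, a ratio that is free of the scaling between libraries. As deposited, the 3-gene inhibitor sum in the adult was close to that at E10.5, and between those libraries the ratio moved mainly with the D cyclins. Unlike the ratio, that closeness depends on the scaling. With median-of-ratios scaling Cdkn1a, Cdkn1b and Cdkn2c changed by 1.21, 0.11 and 0.84 from E10.5 to the adult. Cdkn1b held 82.4% of the inhibitor sum in the E10.5 library, 78.4% at E13.5 and 68.4% at 8 weeks, while Cdkn1a held 7.54%, 4.63% and 16.2%.

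All 7 inhibitors of the Cip/Kip and INK4 families were also summed, a choice made after the values were seen. Their ratio to the D cyclins was, as for the 3 genes, higher at E13.5 than at E10.5, but it was lowest in the adult, where that of the 3 genes was highest. Cdkn1c, which encodes p57 and is imprinted, was at 899 FPKM at E10.5, 669 FPKM at E13.5 and 7.81 FPKM in the adult. It made up 93.3% of the 7-gene sum in the E10.5 library, 85.9% at E13.5 and 14.5% at 8 weeks, and its E10.5 to adult change was −6.68. The sum of 7 over the D cyclin sum stood at 3.10 at E10.5, 3.61 at E13.5 and 1.07 at 8 weeks, and without Cdkn1c it was 0.206, 0.511 and 0.912. Cdkn2d, which encodes p19, was at 24.0 FPKM at E10.5, 46.2 FPKM at E13.5 and 7.94 FPKM in the adult, a difference of −1.48 between E10.5 and adult. The neighbouring genes Cdkn2a and Cdkn2b were low. Cdkn2b, encoding p15, was at 0.2999 FPKM at E10.5, 1.31 FPKM at E13.5 and 0.145 FPKM in the adult, and Cdkn2a, encoding p16 and p19ARF, was listed at 0 at E10.5 and was at 0.153 FPKM at E13.5 and 0.0736 FPKM in the adult. In the adult, Cdkn1b was the leading inhibitor of the 7 with 48.1% of their sum.

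**Figure D2:**
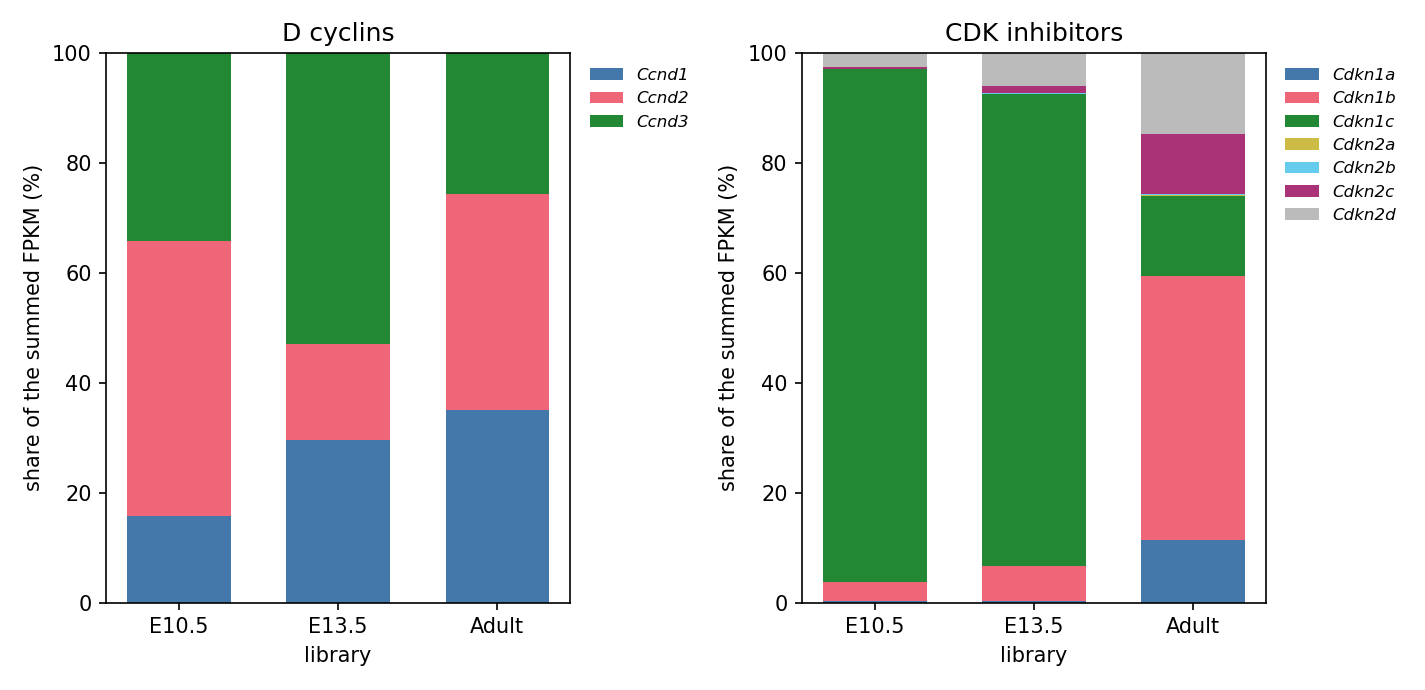
Share of the summed FPKM (%) held by each D cyclin (left) and by each of 7 CDK inhibitors (right) in the E10.5, E13.5 and adult libraries, as stacked bars from 0 to 100. Ccnd2 leads at E10.5 with 50.03% and Ccnd3 at E13.5 with 52.97%, and Cdkn1c makes up 93.3% of the inhibitors at E10.5 and 14.5% at 8 weeks.

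On mm10, Cdkn1a lies on the plus strand at chr17:29090986-29100722, Cdkn1b on the plus strand at chr6:134920396-134925525 and Cdkn2c on the minus strand at chr4:109660765-109666768. Cdkn1a was assembled from 2 start sites. The 250 bases before the upstream RefSeq start, chr17:29090729-29090978 on the plus strand, are printed because p21 is known as a target of p53, with the motif ACATGTNNNNACATGT in capitals, letters like those of a p53 site, chosen after the sequences were seen.
Cdkn1a promoter: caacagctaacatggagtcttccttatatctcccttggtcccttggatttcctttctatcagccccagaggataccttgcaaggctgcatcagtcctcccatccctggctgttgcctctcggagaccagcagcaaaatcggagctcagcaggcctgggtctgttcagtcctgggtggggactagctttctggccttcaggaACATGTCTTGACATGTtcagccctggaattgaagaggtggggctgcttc
The match begins 49 bases before the start, at chr17:29090930-29090945, and the motif, which reads the same on both strands, occurs in 4 of the 32851 windows (0.0122%). Trp53, which encodes p53, was at 21.9 FPKM at E10.5, 16.2 FPKM at E13.5 and 4.26 FPKM in the adult. Of 11 genes on a list of p53 and its targets, 3 were higher and 6 lower by the limit from E10.5 to the adult, with a median of −1.13. Beside this and the list counts that follow, 14.8% of all mRNA loci were higher and 27.3% lower over that interval, with a median of −0.40. The largest increases were those of Ccng1, which encodes cyclin G1, from 93.6 FPKM at E10.5 to 551 FPKM in the adult (change 2.55), and of the stress gene Sesn1, from 13.2 to 49.2 FPKM (1.82). The largest decreases were those of Trp53 itself (−2.12) and Phlda3, an inhibitor of AKT signalling (−1.91). Protein was not measured.

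The genes that act on p27 and D cyclin protein were also measured as RNA. Skp2 encodes the F-box protein that marks p27 for breakdown, and Cks1b its cofactor. Cks1b was at 97.7 FPKM at E10.5, 142 FPKM at E13.5 and 4.67 FPKM in the adult (change −4.12 from E10.5 to the adult). Skp2 was at 24.3, 22.8 and 0.920 FPKM in the same order (−3.72). Of the 8 turnover genes on the list these were the only 2 past the limit from E10.5 to the adult, both lower, and the list median was −0.42. The D cyclin F-box genes Fbxo31 (0.69) and Fbxo4 (0.10) were within it. Of 7 upstream factors 3 were lower by the limit and none higher, with a median of −0.96, beside 27.3% of all mRNA loci lower. With median-of-ratios scaling 1 of the 7 was lower. They included Mycn (−3.50) and Tgfb1, a growth factor that induces CDK inhibitors in many cells (−1.06), while Foxo3, a forkhead factor known to activate Cdkn1b, was at 0.45.

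Rb1, the target of the D cyclin kinases, was at 7.18 FPKM at E10.5, 4.43 FPKM at E13.5 and 11.4 FPKM in the adult. It was lowest at E13.5 and 2.58-fold higher in the adult than at E13.5, a change of 1.19, and its rank went from the 28.5th percentile at E13.5 to the 65.0th in the adult. Rb1 over the D cyclin sum stood at 0.0231 at E10.5, 0.0206 at E13.5 and 0.226 at 8 weeks. Rb1 lies on the minus strand at chr14:73186149-73325791, and Lpar6, a lysophosphatidic acid receptor gene on the opposite strand inside it, was at 8.47 FPKM at E10.5, 15.1 FPKM at E13.5 and 10.8 FPKM in the adult.

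The genes of the 3 pocket proteins exchanged places, a comparison of shares within a library. Their sum was 27.2 FPKM at E10.5, 26.7 FPKM at E13.5 and 27.2 FPKM in the adult as deposited, and 25.1, 22.4 and 34.3 FPKM with median-of-ratios scaling. Rbl1, which encodes p107, was at 15.0 FPKM at E10.5, 15.0 FPKM at E13.5 and 2.31 FPKM in the adult. Rbl2, which encodes p130, was at 5.02 FPKM at E10.5, 7.31 FPKM at E13.5 and 13.47 FPKM in the adult. Rbl1 thus went from 55.2% of the sum in the E10.5 library and 56.0% at E13.5 to 8.49% at 8 weeks, whereas Rbl2 went from 18.4% and 27.4% to 49.5%, and Rb1 from 26.3% and 16.6% to 42.0%. This grouping was made after the values were seen.

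Of the 12 genes on the list of the other pocket proteins and the E2F and DP factors, 8 were lower and 1, Rbl2, higher by the limit from E10.5 to the adult, with a median of −1.78. E2f8, a repressor E2F, was at 7.71 FPKM at E10.5, 3.49 FPKM at E13.5 and 0.171 FPKM in the adult (−2.90 from E10.5 to the adult). E2f1, an activator, was at 8.67, 5.04 and 0.844 FPKM in the same order (−2.39). The DP partner Tfdp2 was at 10.3, 9.69 and 17.7 FPKM (0.72). All 12 genes on a list of E2F targets of S phase entry were lower by the limit from E10.5 to the adult and from E13.5 to the adult, with medians of −3.57 and −3.76, and none of them passed it between the embryonic stages. Ccna2, which encodes the S phase cyclin A2, was at 114 FPKM at E10.5, 151 FPKM at E13.5 and 0.787 FPKM in the adult (−6.01). Rrm2, a subunit of ribonucleotide reductase, was at 60.5, 77.8 and 0.631 FPKM (−5.24). Of 9 other G1/S cyclins and kinases, 6 were lower by the limit from E10.5 to the adult, none was higher and the median was −2.71, with Cdk1, the kinase of mitosis, at 57.9 FPKM at E10.5, 80.5 FPKM at E13.5 and 0.284 FPKM in the adult (−5.52). Not all genes of these lists were that low in the adult. The replication clamp gene Pcna was at 108 FPKM at E10.5, 123 FPKM at E13.5 and 14.3 FPKM in the adult (−2.83), an adult level above that of Ccnd3. Ccnh, which encodes the cyclin of the CDK-activating kinase, was at 22.6, 25.5 and 18.7 FPKM (−0.26), and both genes were added after their values were seen.

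**Figure D3:**
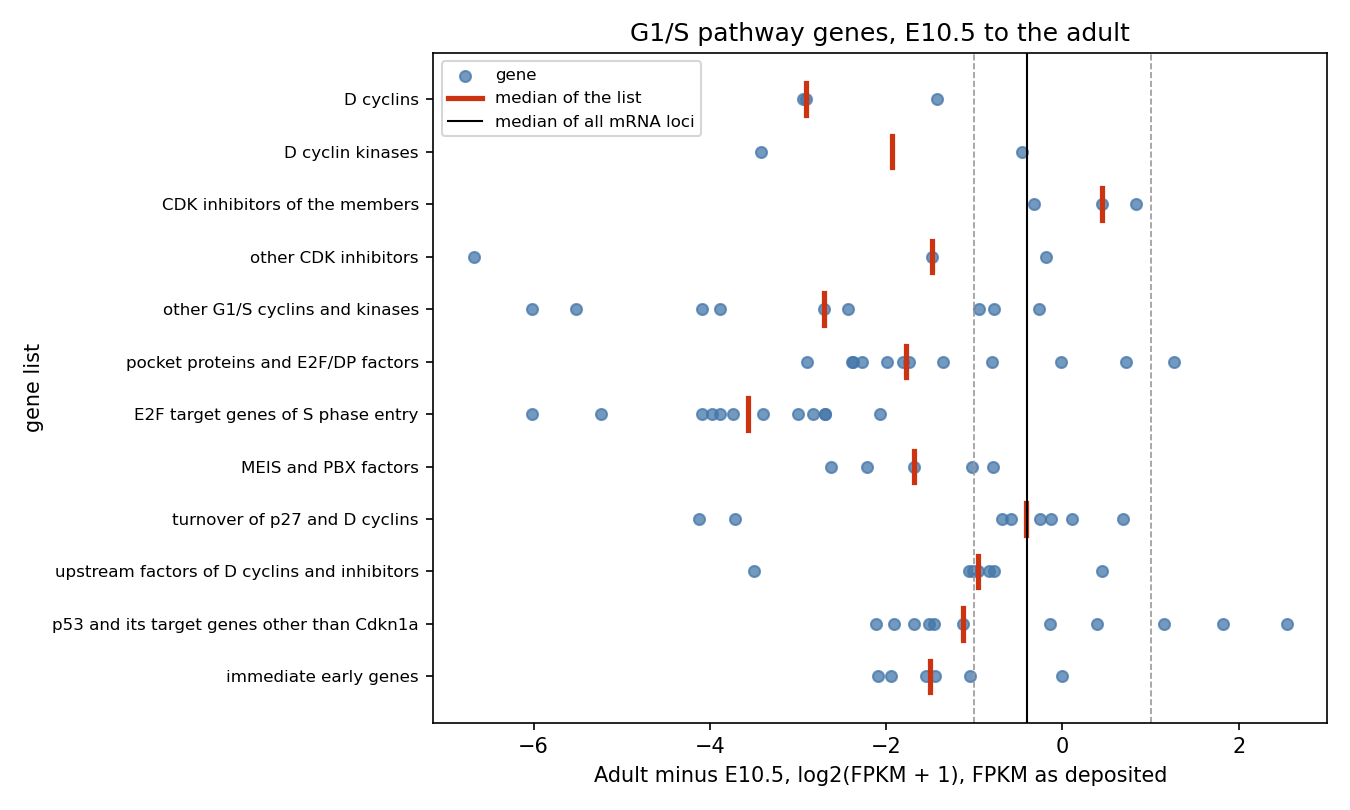
Change from E10.5 to the adult on the log2(FPKM + 1) scale (horizontal axis) for each gene (points) of 12 gene lists (rows), with the median of each list (red bar), the median of all mRNA loci at −0.40 (black line) and the limits of 1 (dashed). All 12 E2F targets lie left of the lower limit, and the 3 inhibitors Cdkn1a, Cdkn1b and Cdkn2c lie between the limits.

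Meis1 was at 33.7 FPKM at E10.5, 37.6 FPKM at E13.5 and 12.6 FPKM in the adult. It was level in the embryo (change 0.15, 0.02 with median-of-ratios scaling and −0.15 with scaling to the mRNA sum) and 2.68-fold lower at 8 weeks than at E10.5 (change −1.35, from the 84.2nd to the 67.5th percentile of mRNA loci). Meis1 lies on the minus strand at chr11:18879490-19019779. The adult library was taken well after the time of birth, so the stages on either side of the arrest are held here and the time of the arrest is not. Of 7 relatives and partners on a MEIS and PBX list, 5 reached 1 FPKM, and 4 of these were lower by the limit from E10.5 to the adult, with a median of −1.69, beside 27.3% of all mRNA loci lower. With median-of-ratios scaling 3 of the 5 were lower. Pbx2, whose locus is joined with another gene, was at 32.0 FPKM at E10.5, 37.7 FPKM at E13.5 and 4.34 FPKM in the adult (−2.62). Pbx3 was at 17.8, 16.8 and 3.05 FPKM (−2.21). Hoxb13, a homeobox gene known to act with MEIS1 in the heart, was listed at 0 in all 3 libraries, and Pbx4 was under 1 FPKM.

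**Figure D4:**
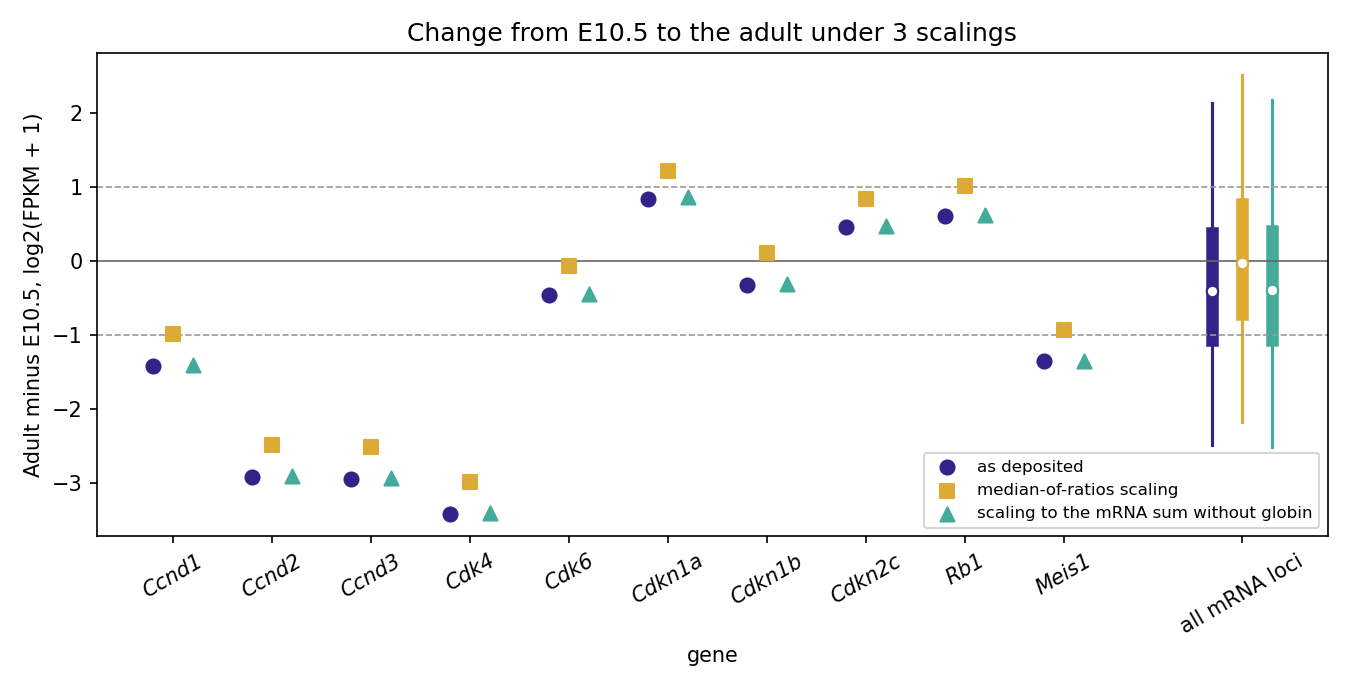
Change from E10.5 to the adult on the log2(FPKM + 1) scale for the 10 genes with the FPKM as deposited (circles), after median-of-ratios scaling (squares) and after scaling to the mRNA sum without globin (triangles). Bars at the right show the 5th to 95th percentiles (thin), the interquartile range (thick) and the median (open circle) of all mRNA loci, and dashed lines mark the limits of 1. Ccnd2, Ccnd3 and Cdk4 lie below the lower limit under every scaling, and Ccnd1 and Meis1 lie just above it with median-of-ratios scaling.

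The study asked about non-coding RNAs near genes of heart development, so the surroundings of the 10 genes were read from the annotation. A locus on the opposite strand began within 3000 bp of the start of 6 genes, and for 5 of these it was non-coding or matched no known transcript. The share of all mRNA loci with such a neighbour was not counted, so neither count can be read as particular to these genes. All 5 non-coding or unmatched loci were under 1 FPKM in every library, the highest value being 0.941 FPKM. The closest lay 323 bp from the Cdkn2c start and was at 0.186 FPKM at E10.5, 0.260 FPKM at E13.5 and 0.941 FPKM in the adult. At Ccnd2, 9330179D12Rik overlapped the 5′ end of the locus in antisense and was at 0.481, 0.277 and 0.702 FPKM in the same order. The study lists this pair among its antisense candidates. It set a lower limit of 1 FPKM for expression. The values given here are per merged locus and lie below that limit, and the study's own value for this RNA was not compared. The coding neighbour was Taf8, which encodes a subunit of the general factor TFIID and began 2603 bp from Ccnd3, at 6.29 FPKM at E10.5, 10.49 FPKM at E13.5 and 4.58 FPKM in the adult. On the same strand as Cdkn1b, 1190002F15Rik began 3567 bp beyond its end and was at 5.13 FPKM at E10.5, 24.9 FPKM at E13.5 and 0.629 FPKM in the adult, where Cdkn1b was also highest at E13.5. It was singled out after its values were seen.

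Markers of several cell types differed between the stages. The summed level of 5 cardiomyocyte markers was 3596 FPKM at E10.5, 6628 FPKM at E13.5 and 12259 FPKM in the adult, and all 5 were present in each library. From E13.5 to the adult, 2 of the 5, Tnnt2 and Pln, were higher by the limit, with 13.0% of mRNA loci higher. The other 3 were within it. Over the same libraries the sum of 5 endothelial markers was 260, 185 and 265 FPKM, and that of 4 mural markers 35.9, 65.6 and 280 FPKM. Rgs5 alone was at 240 FPKM of the adult mural sum. Pdgfrb and Myh11 were also highest in the adult, whereas Cspg4 was lowest there (17.4, 5.03 and 4.34 FPKM). The 5 fibroblast markers summed to 226, 442 and 499 FPKM, where Dcn alone was higher in the adult than at E13.5 (75.9 and 351 FPKM) and the other 4 were lower, with a median change of −0.998 over the 5. Of the 5 macrophage markers 4 were matched, with a sum of 4.77, 26.7 and 93.1 FPKM. The 3 primitive erythroid globins summed to 6727 FPKM at E10.5, 16305 FPKM at E13.5 and 3.05 FPKM in the adult. Between the embryonic stages Hbb-y alone was higher (4356 and 15112 FPKM), and Hba-x (1057 and 827 FPKM) and Hbb-bh1 (1314 and 366 FPKM) were lower, with a median change of −0.35. The 3 epicardial markers summed to 94.5, 82.1 and 4.68 FPKM. The 3 atrial markers, some of which the embryonic ventricle also expresses, summed to 4638, 4382 and 3.03 FPKM. As markers of tissue outside the heart, 3 liver genes had a sum of 7.47, 15.1 and 0.0671 FPKM (Alb listed at 0 at 8 weeks). The sum of 3 fast skeletal muscle genes was 34.2, 12.2 and 2.03 FPKM. They were low in the adult but not all low in the embryo. Mylpf, of the muscle genes, was at 29.9 FPKM at E10.5. Afp, of the liver genes, was at 10.7 FPKM at E13.5, where Cdkn2c was at 10.6 FPKM. Of 7 immediate early genes, which answer to handling of tissue as well as to growth factors, 6 reached 1 FPKM and 5 were lower by the limit from E10.5 to the adult, with a median of −1.50, among them Ier2 (−2.10) and Fos (−1.95). The part of these differences in the values of the cyclins, kinases and inhibitors was not tested.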

How the data were processed

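Total RNA of heart ventricle was sequenced at 3 stages with 1 library each, made with a stranded total RNA kit. Reads were aligned by the authors to mm10 with TopHat (using Bowtie), assembled with Cufflinks with and without UCSC annotation, and the authors deposited FPKM values per merged locus and the merged exons. Versions, options, the use of strand in counting and the handling of multiply mapped fragments are not given in the sources used here.

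A gene is the locus whose annotation carries its symbol. All 73 introns of the reference-matched coding transcripts at the 10 loci are introns of GENCODE M21 on GRCm38. Changes are differences of log2(FPKM + 1), and loci under 1 FPKM in every library were left out of counts. The genes and lists were chosen with earlier results of these data known. Named from each list were the 2 genes with the largest rise and the 2 with the largest fall between E10.5 and adult, all other CDK inhibitors, and opposite-strand non-coding loci at 1 FPKM or more. Other named genes (Myc, overlapping or neighbouring loci) were chosen after their values were seen. Of the mRNA loci, 566 join transcripts of more than 1 gene.

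Counts of reads were not used here. The smallest steps of the values gave about 13.8, 26.7 and 13.8 fragments per FPKM and kilobase for the libraries in order of age, with no clear step in the adult, so fragment numbers are approximate. Alternatives were a pseudocount of 0.1, 2 other scalings, a limit of 2, no filter, leaving out joined loci and length-weighted shares. Scripts ran in Python 3.11.15 with pandas 2.3.3 and were tested on simulated data. Promoter windows came from RefSeq (GRCm38.p6).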

Additional observations from a re-analysis of the deposited data

How the results depend on the processing

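No paired analysis was possible because there is only 1 library for a stage, and for the same reason no replicate could be left out. Across the other pseudocount and both other scalings, each of the 90 recomputed changes of the 10 genes moved by less than 1.5-fold. For the scalings this follows from the library factors, which all genes share, and is no check on single genes. Changes near 0 turned sign with a scaling for Ccnd3 and Meis1 between the embryonic stages, Cdk6 from E13.5 to the adult and Cdkn1b from E10.5 to the adult. Of the list values 369 moved little and 36 by more than 1.5-fold. The cause of the differences below was not tested, and among the 10 genes depth limits Cdkn1a and Cdkn2c at E10.5 most. Both rescalings of the pocket protein sum, added after the data were seen, moved it by less than 1.5-fold in each library. That too is set by the library factors, which lay between 0.792 and 1.19.

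With a pseudocount of 0.1, 1276 mRNA loci were higher and 948 lower between the embryonic stages. Of the 10 genes, 2 were higher from E13.5 and 1 from E10.5 to the adult. Among lists, 1 other CDK inhibitor was higher and 1 pocket or E2F gene lower between the embryonic stages, 1 immediate early gene was higher from E13.5 to the adult, and the E2F target median over that interval was −4.40. With median-of-ratios scaling, 2679 mRNA loci were higher and 2340 lower between E13.5 and adult, and 2232 were lower between E10.5 and adult. Of the 10 genes, 2 were higher over each interval to the adult and 3 lower between E10.5 and adult. The pocket and E2F list had 1 lower between the embryonic stages and 2 higher over each interval to the adult. From E13.5 to the adult 1 upstream factor and 1 immediate early gene were higher, and from E10.5 to the adult 1 turnover gene was higher and 1 upstream factor lower. With scaling to the mRNA sum, 422 mRNA loci were higher and 1086 lower between the embryonic stages, with 0 of the 10 genes and 0 of the p53 list higher, 2 pocket or E2F genes lower and 1 MEIS or PBX gene lower. From E13.5 to the adult, 2 of the 10 genes, 2 pocket or E2F genes and 1 immediate early gene were higher.

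With a limit of 2 (fold 4), 107 mRNA loci were higher and 31 lower between the embryonic stages, 554 higher and 1242 lower between E13.5 and adult, and 703 higher and 1018 lower between E10.5 and adult. Of the 10 genes 0 were higher over either interval in which 1 had been, 2 were lower from E13.5 and 3 from E10.5 to the adult. At this limit the p53, upstream and immediate early lists had 0 genes past it between the embryonic stages. From E13.5 to the adult, 1 pocket or E2F gene was lower, 1 p53 gene higher and 2 lower, and 0 turnover genes higher. From E10.5 to the adult, lower were 1 other inhibitor, 4 pocket or E2F genes (0 higher), 2 MEIS or PBX genes, 1 p53 gene (1 higher), 1 upstream factor and 1 immediate early gene. Without the filter, the other inhibitor median was −1.71 from E13.5 and −0.83 from E10.5 to the adult, the immediate early median −0.039 from E13.5 to the adult, and the MEIS and PBX median −1.03 from E10.5 to the adult. Without joined loci every mRNA count stayed within 1.5-fold. Length-weighted shares moved for Ccnd3 to 15.3% at E10.5, 32.7% at E13.5 and 11.99% at 8 weeks, and for Ccnd2 to 34.7% at E13.5.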
